A study of Mus musculus with 36 samples.

Results

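Tetrahydrobiopterin and nitric oxide synthesis is followed here through 10 genes of the 24421 gene symbols counted in mouse liver cells. The 10 are Gch1, Gchfr, Pts, Spr, Qdpr, Nos1, Nos2, Nos3, Ddah1 and Ddah2, taken by name from every count file. The members were chosen by name, with earlier results of these data known, so the levels and 12 h folds given below count among the values behind the choice. Levels and counts over the list are therefore a description, and each test quoted is that gene's row in a fit across all genes. RNA sequencing had been run on hepatic stellate cells (HSC), liver sinusoidal endothelial cells (LSEC) and hepatocytes of C57BL/6 mice, with 4 libraries in each of 9 groups. Each cell type came from mice given PBS, labelled WT, and from mice sampled 12 h or 36 h after diphtheria toxin (DT), given to deplete Kupffer cells, the macrophages that reside in liver sinusoids. The labels name no allele and no toxin-treated group that kept its Kupffer cells, so toxin and depletion cannot be told apart. They also do not say that each library came from its own mouse, so p-values measure the spread between libraries.

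Nitric oxide synthases make nitric oxide from arginine and need tetrahydrobiopterin as a cofactor. Gch1 encodes GTP cyclohydrolase 1, the first and usually limiting enzyme of tetrahydrobiopterin synthesis, and Gchfr its feedback regulator, which mediates inhibition by tetrahydrobiopterin and stimulation by phenylalanine. Pts (6-pyruvoyltetrahydropterin synthase) and Spr (sepiapterin reductase) complete the synthesis, and Qdpr (quinoid dihydropteridine reductase) recycles the spent cofactor. Nos1, Nos2 and Nos3 encode the neuronal, inducible and endothelial synthases. Ddah1 and Ddah2 encode dimethylarginine dimethylaminohydrolases: Ddah1 degrades asymmetric dimethylarginine, an inhibitor of the synthases, while such an activity of Ddah2 is disputed. In liver, endothelial nitric oxide acts on stellate cells through soluble guanylate cyclase and cGMP, and hepatocytes use the cofactor for phenylalanine hydroxylation.

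The stretches before the start sites of Gch1, Ddah1 and Ddah2 are shown as examples of members with calls at 12 h, and were picked after their values were seen. The RefSeq start is the GENCODE start for Gch1 and Ddah2 and lies 17 bases past it for Ddah1. Gchfr and Nos1, which were also called at 12 h and have an entry, are not shown. Each line holds 250 bases 5′ to 3′ on the gene's strand from RefSeq (GRCm38.p6), ending 1 base before the RefSeq start, with matches to the searched motifs in capitals.
Gch1, chr14:47189414-47189663, minus strand: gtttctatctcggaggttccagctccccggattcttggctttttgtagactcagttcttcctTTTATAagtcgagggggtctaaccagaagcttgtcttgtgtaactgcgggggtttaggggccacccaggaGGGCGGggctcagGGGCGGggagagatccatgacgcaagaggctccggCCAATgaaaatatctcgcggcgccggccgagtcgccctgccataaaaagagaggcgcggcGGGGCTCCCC
Ddah1, chr3:145758442-145758691, plus strand: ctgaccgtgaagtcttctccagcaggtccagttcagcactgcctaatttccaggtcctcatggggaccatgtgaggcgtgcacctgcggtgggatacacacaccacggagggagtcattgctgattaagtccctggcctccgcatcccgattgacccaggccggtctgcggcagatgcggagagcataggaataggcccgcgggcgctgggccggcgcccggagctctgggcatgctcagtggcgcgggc
Ddah2, chr17:35058785-35059034, plus strand: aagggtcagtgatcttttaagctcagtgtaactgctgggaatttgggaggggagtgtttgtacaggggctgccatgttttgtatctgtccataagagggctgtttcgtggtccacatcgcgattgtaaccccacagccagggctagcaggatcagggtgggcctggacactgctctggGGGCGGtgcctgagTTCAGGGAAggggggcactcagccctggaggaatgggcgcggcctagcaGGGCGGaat
All motifs were searched on both strands of each stretch. The GC box was spelled GGGCGG wherever it was looked for, the E-box was taken as the letters CACGTG on either strand, and the AP-1 site as any stretch reading TGANTCA there. The GAS motif was written TTCNNNGAA for this search. The CCAAT box was searched under its own letters, and the TATA box was taken as the letters TATAAA in the same windows. The NF-kB motif is given by name, and overlap between motifs was allowed. The Gch1 stretch held an NF-kB match in its last 10 bases, a CCAAT match at -70 to -66, 2 GC boxes and a TATA box on the reverse strand. An NF-kB match was present in 3.90% of the 32851 RefSeq mouse promoters of the same length. The Ddah2 stretch held a GAS match at -58 to -50, a motif found in 7.02% of promoters, and 2 GC boxes. The Ddah1 stretch held none of the searched motifs. Its GC content was 64.0%, against 59.2% for Gch1, 58.0% for Ddah2 and a median of 52.4% over all promoters. Of the 8 members with a promoter entry, 6 held a GC box, 3 CCAAT, 2 the NF-kB motif, 1 GAS and 1 a TATA box, and 0 held AP-1 or the E-box. The NF-kB matches were in Gch1 and Nos1, and the Nos1 stretch lies 85807 bases past the GENCODE start of that gene, so it is not the stretch before that start. The background shares were 32.7% for the GC box, 33.8% for CCAAT, 12.4% for the TATA box, 6.75% for AP-1 and 6.02% for the E-box. Nos2 and Nos3 had no entry.

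Library totals were 25404719 to 31734631 counts on genes, and 0 of 54 within-group library pairs were identical. Stellate markers were high in the HSC libraries, with a sum over 7 markers of 29827 to 37417 CPM in WT and of 17697 to 28194 CPM at 12 h. The 11 Kupffer cell markers, some of which other cells also express, summed to 493 to 763 CPM in WT HSC and 118 to 432 at 12 h, and to 542 to 681 and 480 to 762 CPM in LSEC. Of these, Clec4f, Timd4 and Cd163 had no count in the HSC libraries at 12 h. In LSEC at 12 h Timd4 had none, Clec4f 6 counts and Cd163 1 count over 4 libraries. Replicate 4 of LSEC at 36 h stood apart, with a stellate marker sum of 186.5 CPM against 7.14 to 30.9 in the others of its group. In bulk libraries, fewer cells of a type and less RNA per cell cannot be told apart.

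Levels are CPM, counts scaled to a common library size, with TMM factors over the 36 libraries, as mean ± SD with n = 4. Folds are log2 values ± standard error from edgeR's quasi-likelihood fits, with p-values adjusted by Benjamini-Hochberg over all genes of a fit. A gene is called at an adjusted p under 0.05. In the fit of HSC all 10 members passed the filter on low counts, Nos2 only through its 12 h and 36 h libraries together. In LSEC 9 passed, without Nos1 (17, 35 and 13 counts in WT, at 12 h and at 36 h). In hepatocytes 7 passed, without Nos1 (0, 2 and 0 counts), Nos2 (0, 0 and 8) and Ddah2 (3, 5 and 8).

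In WT mice the cofactor genes were highest in hepatocytes and the synthases were split between the other cell types. Gch1 (chr14:47153895-47189413, GRCm38) had 503.1 to 529.5 CPM in the WT hepatocyte libraries, 27.7 to 31.3 in LSEC and 0.334 to 0.937 in HSC. The groups did not overlap, and the mean was 516 ± 10.8 CPM in hepatocytes, 29.5 ± 1.99 in LSEC and 0.551 ± 0.269 in HSC. The HSC value rests on 71 counts over 4 libraries. Gchfr (chr2:119167773-119172390) followed the same order, with 220.2 ± 38.5, 24.7 ± 3.16 and 0.433 ± 0.318 CPM. Qdpr (chr5:45434021-45450236) was at 1048 CPM in hepatocytes, 51.1 in LSEC and 38.2 in HSC. Its LSEC and HSC levels were close (log2 fold HSC to LSEC -0.42, adjusted p 0.0240), and that call was lost under RLE scaling (0.0502) and in 4 fits with a library left out (0.0597 to 0.0790). Pts (chr9:50521617-50528724) had 44.1 CPM in hepatocytes, 26.3 in LSEC and 9.26 in HSC. Spr (chr6:85130176-85137766) was the cofactor gene with a higher level in HSC than in LSEC, 44.6 against 28.8 CPM (log2 fold 0.63), below 154.4 CPM in hepatocytes.

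Each synthase had its own distribution in WT mice. Nos3 (chr5:24364810-24384474) was at 273.6, 263.3, 172.1 and 198.6 CPM in LSEC, and at 0.436 CPM in HSC and 0.407 in hepatocytes. HSC and hepatocytes did not differ for Nos3 beyond the spread of their libraries (log2 fold 0.10, not called), while LSEC was 9.10 log2 units above hepatocytes. Nos1 (chr5:117781032-117958840) was at 7.96, 7.88, 9.004 and 8.68 CPM in HSC. It had 17 counts in the LSEC libraries together and none in hepatocytes, at least 222.5-fold below HSC. HSC exceeded LSEC by 6.07 log2 units for Nos1. Nos2 (chr11:78920787-78960254) had no count in WT HSC or hepatocyte libraries and 1.69 ± 0.747 CPM in LSEC, at least 75.5-fold and 45.6-fold above them.

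The methylarginine hydrolases also divided by cell type. Ddah1 (chr3:145758675-145894277) was highest in hepatocytes, at 246.9 ± 49.2 CPM, against 53.2 ± 8.72 in LSEC and 1.40 ± 0.210 in HSC. Ddah2 (chr17:35059035-35062095) was highest in LSEC, at 141.5 ± 3.47 CPM, against 23.6 ± 3.08 in HSC and 3 counts over the hepatocyte libraries. Over all genes, 56.8% were called between HSC and LSEC, 79.1% between HSC and hepatocytes and 79.0% between LSEC and hepatocytes. The members called were 10, 8 and 10 of 10 in those comparisons. Among them Nos1 between LSEC and hepatocytes (adjusted p 0.0382) rests on 17 counts, 13 of them in 1 LSEC library, and was lost in 6 of 12 alternatives. Nos2 is counted in all these numbers although only LSEC, its high group, took it past the filter. With no count in WT HSC or hepatocytes, it was not measured between those cell types.

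Some of the lowest HSC values lay at or below the level that the marker share of another cell type corresponds to. The hepatocyte marker sum in WT HSC was 0.285% of its level in WT hepatocytes. That share of the hepatocyte Gch1 level is 1.47 CPM, above the 0.551 CPM measured, and for Gchfr it is 0.627 against 0.433 CPM. For Ddah1 it is 0.703 against 1.40 CPM, and for Qdpr 2.98 against 38.2 CPM. The endothelial marker sum in WT HSC was 0.359% of its LSEC level, which for Nos3 gives 0.816 against the measured 0.436 CPM. The part of such RNA in the lowest HSC levels was not tested.

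Levels of different genes are compared per length, as CPM per kb of GENCODE exon. In WT hepatocytes Qdpr led with 664.6, before Gchfr with 341.3, Gch1 with 185.8, Spr with 125.6, Ddah1 with 65.1 and Pts with 37.2 CPM per kb. In WT LSEC the order was Ddah2 (105.1), Nos3 (54.9), Gchfr (38.2), Qdpr (32.4), Spr (23.4), Pts (22.2), Ddah1 (14.0) and Gch1 (10.6). In WT HSC it was Spr (36.2), Qdpr (24.2), Ddah2 (17.5), Pts (7.81), Nos1 (0.819), Gchfr (0.672), Ddah1 (0.370) and Gch1 (0.199). Gch1, the first enzyme of the synthesis, was thus the lowest of the 8 genes listed per length in WT HSC. It was also the lowest of those listed in WT LSEC, so this place was not particular to HSC. Members left out of these orders were lower still, Nos3 and Nos2 in HSC and Nos2 and Nos1 in LSEC. The HSC level of Gch1 was also below that of the hepatocyte marker share, as given above. The later enzymes Pts and Spr and the recycling enzyme Qdpr were well measured in HSC.

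**Figure D1:**
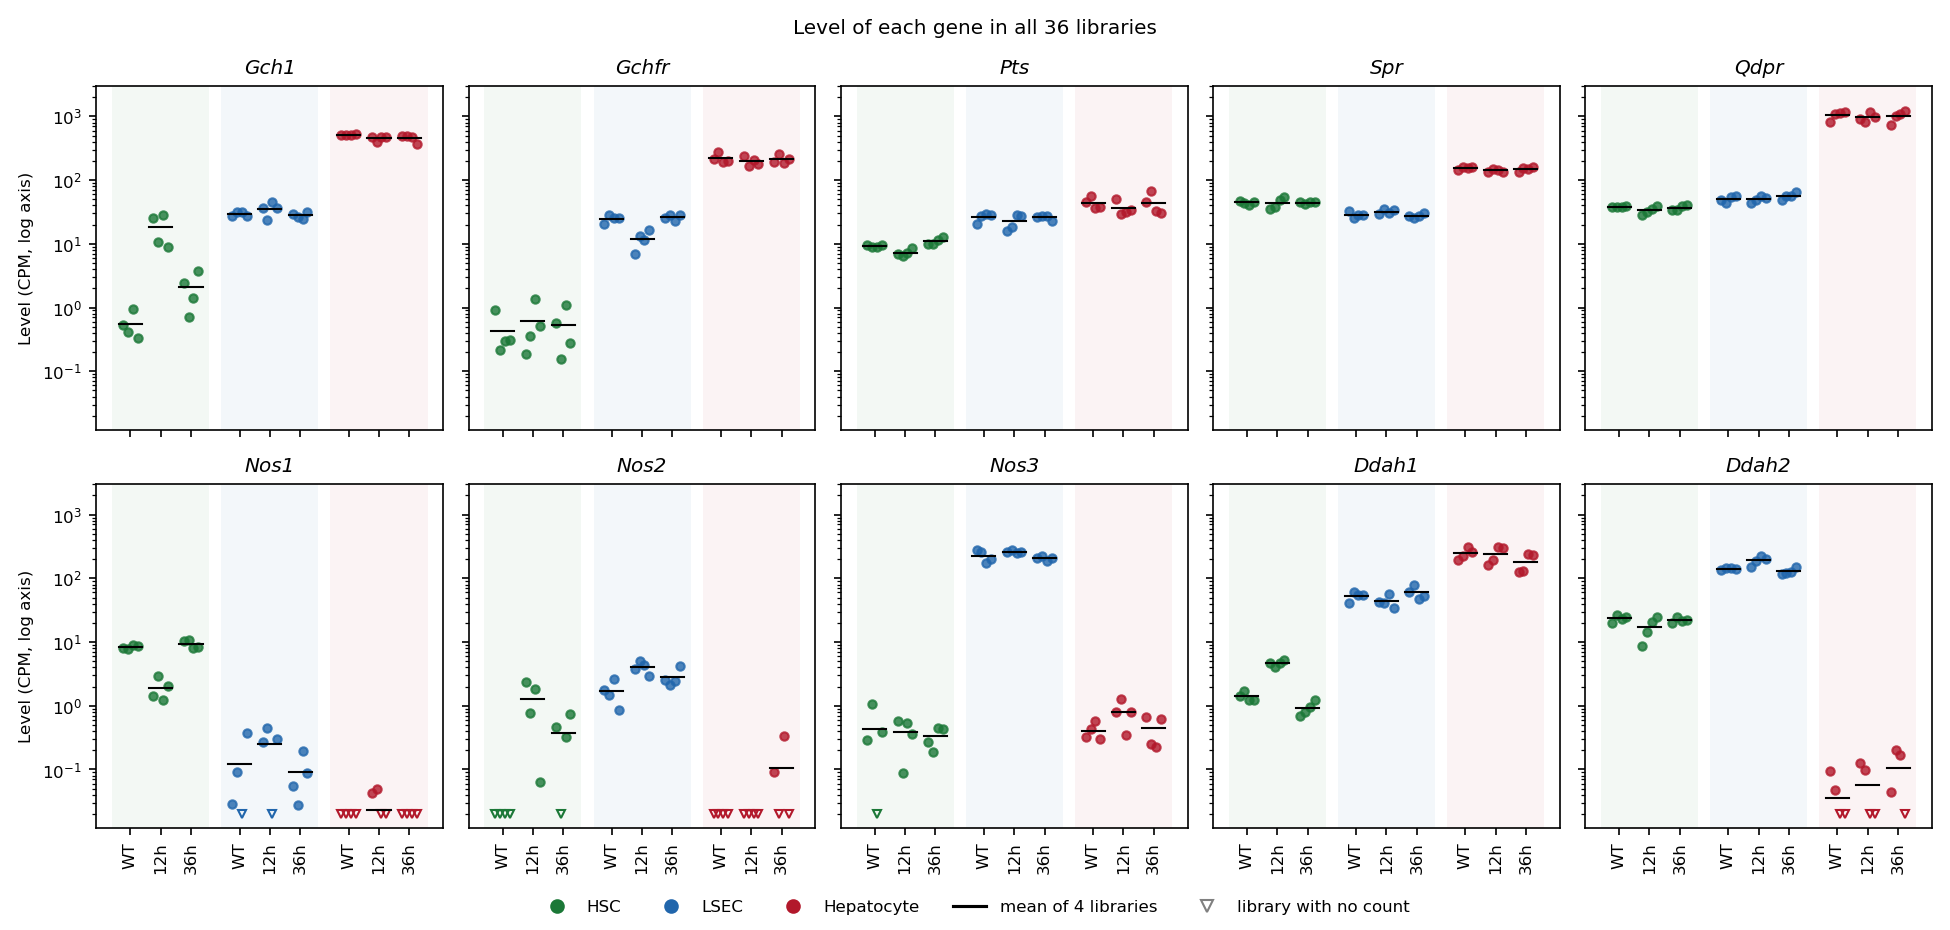
CPM (log axis) of the 10 genes in each of the 36 libraries, by cell type and group. Points are libraries, black lines are means of 4 libraries, and open triangles mark libraries with no count. Gch1 in HSC lies between 8.84 and 28.4 CPM at 12 h and between 0.334 and 0.937 in WT, while Nos1 in HSC moves the other way.

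At 12 h Gch1 and Ddah1 rose in HSC, Nos1 fell, and Nos2 was detected where WT had no count. Gch1 was at 0.526, 0.406, 0.937 and 0.334 CPM in WT and at 25.8, 10.8, 28.4 and 8.84 CPM at 12 h. All 12 h libraries lay above all WT libraries, and replicates 1 and 3 were the highest. The log2 fold was 5.08 ± 0.56 (adjusted p 6.54e-05). In the 14 alternatives run it was 4.80 to 5.46 and called each time. At 12 h the hepatocyte marker sum in HSC was 0.292% of its hepatocyte level, and that share of hepatocyte Gch1 is 1.33 CPM, against 18.5 ± 10.05 CPM measured. The part of RNA from other cells in the Gch1 level was not tested. The highest HSC libraries at 12 h overlapped the LSEC range at 36 h, 24.7 to 31.6 CPM, so that the order of those groups is not separated by their spread.

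Nos2, the inducible synthase, had no count in the WT HSC libraries and 2.34, 0.775, 1.86 and 0.0645 CPM at 12 h. Replicates 1 and 3 were again the highest, and replicate 4 was near 0. The 158 counts at 12 h make Nos2 at least 55.1-fold higher than a floor of 3 counts over the WT group. Since Nos2 had no count in WT and passed the filter only through the 12 h and 36 h libraries, no test is quoted for it. Monocyte and neutrophil markers in HSC summed to 0.645 to 1.99 CPM at 12 h, against 2.16 to 5.62 CPM in WT. The LSEC marker share at 12 h (0.216%) corresponds to 0.00867 CPM of Nos2, against 1.26 CPM measured. The part of these cells, or of Kupffer cells, in the Nos2 level of HSC was not tested.

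Nos1, the neuronal synthase, was at 1.42, 2.92, 1.23 and 2.06 CPM in HSC at 12 h, against 7.88 to 9.004 in WT. The groups did not overlap, and replicates 1 and 3, the highest for Gch1, were the lowest for Nos1. The log2 fold was -2.12 ± 0.23 (adjusted p 5.89e-05). The stellate marker sum was also lower at 12 h, as given above, and lowest in replicate 3. Its part in the lower Nos1 level was not tested.

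Ddah1 was at 1.43, 1.69, 1.24 and 1.25 CPM in WT HSC and at 4.72, 4.05, 4.75 and 5.23 CPM at 12 h. The 12 h libraries were alike and all above WT, with a log2 fold of 1.74 ± 0.23 (adjusted p 0.000169). The hepatocyte marker share at 12 h corresponds to 0.707 CPM of Ddah1, and its part in the measured level was not tested. Ddah2 was at 8.77, 14.3, 20.5 and 24.7 CPM at 12 h, overlapping WT, and was not called (log2 fold -0.47, adjusted p 0.143).

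The other cofactor genes were not called in HSC at 12 h. Pts, which acts directly after Gch1, was at 6.84, 6.47, 7.28 and 8.52 CPM against 8.90 to 9.71 in WT (log2 fold -0.35 ± 0.14, adjusted p 0.0704). Its libraries did not overlap those of WT, but it missed the threshold. Spr had a mean of 44.1 CPM at 12 h against 44.6, and Qdpr 33.7 against 38.2. Gchfr stayed near the lower end of detection, at 0.607 ± 0.522 CPM (log2 fold 0.47, adjusted p 0.637). In this comparison 32.0% of the 12676 genes tested were called, and 4 of the 10 members. Nos2 is counted among them although only the 12 h and 36 h libraries took it past the filter.

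**Figure D2:**
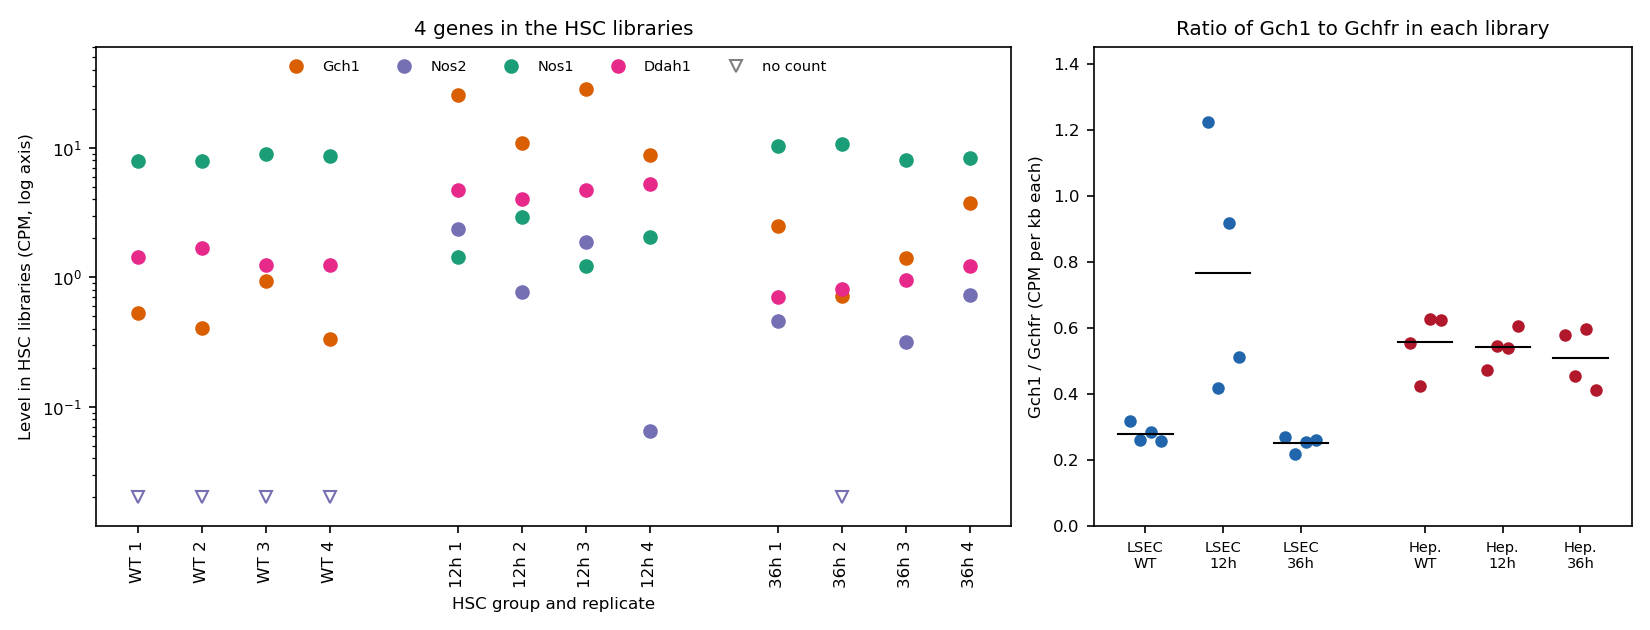
Left: CPM (log axis) of Gch1, Nos2, Nos1 and Ddah1 in the 12 HSC libraries, where Gch1, Nos2 and Ddah1 lie higher and Nos1 lower at 12 h. Right: Gch1 over Gchfr per kb of exon in each LSEC and hepatocyte library, which reaches 1.22 in LSEC at 12 h and lies between 0.257 and 0.319 in WT LSEC.

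In LSEC at 12 h Gchfr fell, Nos2 and Ddah2 rose, and Gch1 and Nos3 were not called. Gchfr was at 20.3, 27.9, 25.4 and 25.1 CPM in WT and at 6.87, 13.3, 11.4 and 16.4 CPM at 12 h. Each 12 h library lay below each WT library, and the log2 fold was -1.02 ± 0.21 (adjusted p 0.00459). The call held in all 14 alternatives, with adjusted p up to 0.0347. Gch1 was at 36.2, 23.9, 44.8 and 35.9 CPM at 12 h against 27.7 to 31.3 in WT. The groups overlapped through replicate 2 and Gch1 was not called (log2 fold 0.28 ± 0.16, adjusted p 0.231), but without that library it was (adjusted p 0.0257). The per-kb ratio of Gch1 to Gchfr was 1.22, 0.418, 0.917 and 0.511 at 12 h, above the WT range of 0.257 to 0.319 in all 4 libraries. It is a description of 2 levels and was not tested as such.

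Nos2 in LSEC was at 1.75, 1.49, 2.66 and 0.855 CPM in WT and at 3.79, 5.07, 4.30 and 2.90 CPM at 12 h. The lowest 12 h library lay above the highest WT library, and the log2 fold was 1.27 ± 0.33 (adjusted p 0.0175). In the fit of all 36 libraries the call was lost (adjusted p 0.278). Monocyte and neutrophil markers summed to 4.96 to 10.8 CPM in WT LSEC and 6.65 to 20.2 CPM at 12 h, and their part in Nos2 was not tested. Ddah2 was at 136.5, 144.5, 143.0 and 141.8 CPM in WT and at 152.0, 185.0, 226.6 and 201.2 CPM at 12 h. No 12 h library fell in the WT range, and the log2 fold was 0.46 ± 0.12 (adjusted p 0.0181). The call was lost in the fit of all 36 libraries (0.235) and without 12 h replicate 3 (0.0537). Nos3 had 259.9, 274.0, 245.7 and 257.9 CPM at 12 h, within or near the WT values (log2 fold 0.22, adjusted p 0.284). Of 12286 genes tested in LSEC, 18.2% were called, and 3 of 9 members.

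At 36 h no member was called against WT in HSC or LSEC. In HSC Nos1 was back at 10.2, 10.7, 8.07 and 8.41 CPM (log2 fold to WT 0.16, adjusted p 0.963; to 12 h 2.28 ± 0.23, adjusted p 4.68e-05). Gch1 was at 2.47, 0.718, 1.40 and 3.76 CPM, below all 12 h libraries (log2 fold to 12 h -3.14 ± 0.49, adjusted p 0.000581). Against WT it was 1.94 ± 0.56 (adjusted p 0.311), with 1 library inside the WT range and the fit of all 36 libraries calling it (0.0294). Replicate 4, with the highest Gch1, also held Clec4f at 0.642 CPM, where the others of its group had none. That library stood apart more widely, with a stellate marker sum of 19192 CPM against 31228 to 34723 and a monocyte and neutrophil sum of 4.43 CPM against 1.18 to 1.49, and was also the highest of its group for Nos2 and Ddah1. Its part in the 36 h values was not tested. Ddah1 fell to 0.701, 0.811, 0.957 and 1.22 CPM (log2 fold to 12 h -2.34 ± 0.24, adjusted p 4.42e-05), all below the WT libraries, without a call against WT (-0.60, adjusted p 0.616). Nos2 had 0.457, 0, 0.319 and 0.734 CPM. As at 12 h, no test against WT is quoted for Nos2. Pts was at 9.85, 9.80, 11.5 and 12.996 CPM, higher than at 12 h (0.60 ± 0.14, adjusted p 0.00595).

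In LSEC at 36 h Gchfr had risen back to 25.0, 28.45, 22.5 and 28.1 CPM (log2 fold to 12 h 1.09 ± 0.21, adjusted p 0.00271). Ddah2 was at 116.1, 123.2, 125.8 and 149.1 CPM, lower than at 12 h (-0.60 ± 0.12, adjusted p 0.00373), a call lost in the fit of all 36 libraries (0.0869). Nos3 was at 207.3, 225.2, 186.0 and 212.2 CPM, below every 12 h library without a call (-0.35, adjusted p 0.0776). Against 12 h, 27.9% of genes were called in HSC, with 4 of 10 members, and 21.3% in LSEC, with 2 of 9 members. Against WT, 0.142% of genes were called in HSC and 0% in LSEC, with no member. At an unadjusted p under 0.05, 3 members passed in HSC at 36 h (Ddah1, Gch1 and Nos2) and 1 in LSEC, against 868 of 12676 and 1288 of 12286 genes. Nos2 in HSC passed the filter only through its 12 h and 36 h libraries and had no count in WT, so its p-value is not read.

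**Figure D3:**
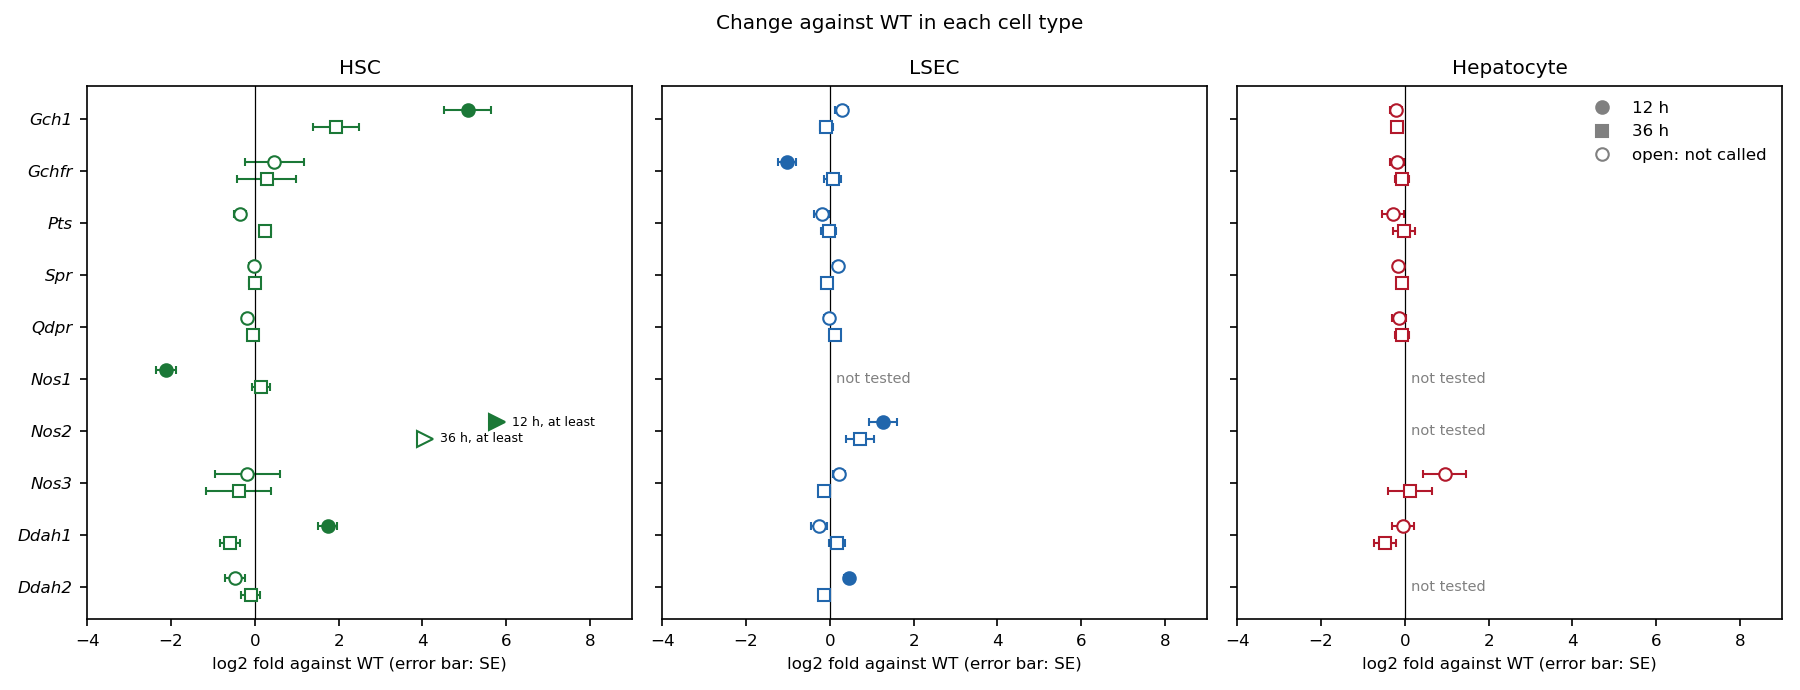
Log2 fold against WT of each gene, by cell type, with its standard error (12 h circles, 36 h squares, filled where called). Right-pointing triangles for Nos2 in HSC are lower bounds, and members below the count filter are marked as not tested. In HSC at 12 h Gch1 stands at 5.08 and Nos1 at -2.12.

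Hepatocytes had the highest mean levels of the cofactor genes at every time, with no call in any of the 3 comparisons. Gch1 was at 480.3, 396.4, 473.1 and 472.8 CPM at 12 h and at 486.5, 500.2, 468.7 and 373.6 CPM at 36 h. All 8 of these libraries lay below the lowest WT library, and the log2 folds were -0.21 ± 0.13 (adjusted p 0.999) and -0.18. The interval of the 12 h fold was -0.47 to 0.06. Gchfr had 197.5 ± 29.3 CPM at 12 h against 220.2 ± 38.5, Pts 36.9 against 44.1, Spr 141.7 against 154.4 and Qdpr 967 against 1048. Ddah1 was at 242.2 ± 76.8 CPM at 12 h and 180.6 ± 62.3 at 36 h. Of 11326 genes, 0% were called with edgeR at either time or between them, and of the 7 members tested 0 passed an unadjusted p under 0.05 and DESeq2 called 0. Over all genes DESeq2 called 45, 60 and 25, and 453, 564 and 725 genes had an unadjusted p under 0.05.

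The 12 h responses of the cell types were compared in a fit of all 36 libraries. The Gch1 fold was larger in HSC than in LSEC by 4.79 ± 0.49 log2 units (adjusted p 7.61e-07) and larger than in hepatocytes by 5.23 ± 0.49 (adjusted p 9.35e-08). For Ddah1 the differences were 1.99 ± 0.34 (adjusted p 0.000736) and 1.75 ± 0.34 (adjusted p 0.00167). For Nos2 no difference is read between HSC and LSEC, since WT HSC had no count and the fitted value depends on the prior count. The Gchfr decrease in LSEC was not shown to differ from HSC (adjusted p 0.265), nor the Nos1 decrease in HSC from LSEC, where Nos1 had few counts (adjusted p 0.0575, under 0.05 in 4 of 20 alternatives). Between LSEC and hepatocytes 0 of 10 members were called with edgeR, 0 passed at an unadjusted p under 0.05, and DESeq2 called 0, against 2645 of 14104 genes unadjusted and 991 with DESeq2. For Nos1, Nos2 and Ddah2, which lay under the count filter in the hepatocyte fit, the hepatocyte response was hardly measured. Nothing is read from their missing calls against hepatocytes. Over all genes these 3 differences were called for 1.62%, 9.20% and 3.57% of genes (HSC to LSEC, HSC to hepatocytes, LSEC to hepatocytes).

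Related genes are given next, from lists that were chosen with earlier results of these data known. Their counts at 12 h stand against 32.0% of genes called in HSC (2150 higher and 1910 lower of 12676) and 18.2% in LSEC (1197 higher and 1044 lower of 12286), with all-gene medians of 0.01 and -0.02. None of the counts was tested against these shares.

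Most measured genes of cGMP signalling, which acts downstream of nitric oxide, fell in HSC at 12 h. Of the 10 listed genes 8 passed the filter, of which 6 fell and none rose, with a median log2 fold of -0.80. The stellate marker sum was also lower at 12 h, with a mean of 24282 against 32924 CPM in WT, and its part in these values was not tested. Gucy1a1 (listed as Gucy1a3), an alpha subunit of soluble guanylate cyclase, went from 1056 ± 50.02 to 616 ± 79.8 CPM (log2 fold -0.77, adjusted p 0.000513). Gucy1b1 (listed as Gucy1b3), its beta subunit, fell by 0.59 (adjusted p 0.00144), Gucy1a2 by 1.47 (adjusted p 0.00325) and Pde5a, which breaks down cGMP, by 1.14 (adjusted p 0.00069). Prkg1, the cGMP-dependent kinase, fell by 1.03 (adjusted p 0.0450), and Irag1 (listed as Mrvi1), its substrate, by 0.82 (adjusted p 0.0299). These last calls each held in 3 of 8 fits with a library left out, with adjusted p up to 0.0981 and 0.0877. Vasp (0.16) and Adh5 (0.01) were not called. In LSEC 1 of 7 fell, Pde5a, by 0.69 (adjusted p 0.0392), a call that held in 2 of 8 such fits. The difference of the 12 h responses between HSC and LSEC was called for 0 of 8 list genes, against 1.62% of all genes. The fall was thus not shown to differ between these cell types. In WT, 7 of 8 list genes were higher in HSC than in LSEC, among them Gucy1a1 by 10.7 and Gucy1b1 by 6.23 log2 units. Over all genes 56.8% were called in that comparison, 3978 higher and 3628 lower in HSC of 13389.

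Several enzymes that form methylarginines, among them the substrates of Ddah1, rose at 12 h. In HSC 5 of 6 rose (median 0.63), and in LSEC 4 of 6 (median 0.75). Prmt1, the main such enzyme, rose from 46.3 to 89.4 CPM in HSC (log2 fold 0.95) and from 37.1 to 66.6 CPM in LSEC (0.87). Prmt7 rose by 0.90 and 1.01, Prmt3 by 0.68 and 1.01, and Prmt5 by 0.59 and 0.63 in HSC and LSEC, and Carm1 by 0.44 in HSC. Carm1 in LSEC (0.18, adjusted p 0.205) and Prmt6 in both (adjusted p 0.359 in HSC and 0.943 in LSEC) were not called.

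Of the arginine supply and use list, 2 of 7 rose in each of HSC and LSEC, near the share called over all genes in HSC. They were Slc7a1, a cationic amino acid transporter, by 0.51 (adjusted p 0.00747) and 1.63 (adjusted p 0.0108), and Odc1, ornithine decarboxylase, by 1.13 (adjusted p 0.000534) and 2.37 (adjusted p 0.000641). Odc1 went from 23.98 to 121.9 CPM in LSEC.

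Among synthase partners, Hsp90aa1, a chaperone of the synthases, rose by 1.38 in HSC and 1.30 in LSEC, Hsp90ab1 by 0.97 and 0.91, and Dynll1, which binds Nos1, by 0.86 and 0.64. The LSEC calls of Hsp90ab1 and Dynll1 held in 2 of 8 fits with a library left out, and the HSC call of Hsp90ab1 in 6 of 8 (not without WT replicate 1 or 3, adjusted p up to 0.0567). Calm2, a calmodulin gene, fell by 0.49 in HSC, so that 4 of 9 partners were called there and 3 of 11 in LSEC, shares not far from those over all genes.

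Of 7 transcription factors known to act on Gch1, Nos2 or Nos3, 4 rose in HSC at 12 h (median 1.02) and 0 in LSEC. Without WT replicate 2, Klf2 and Klf4 were also called in HSC (adjusted p 0.0032 and 0.00925), and without LSEC WT replicate 2 Cebpb was called in LSEC (0.0219). Nfkb1 went from 21.5 to 43.4 CPM in HSC (log2 fold 1.02, adjusted p 0.00103), and Cebpb rose by 1.14. Irf1 rose by 0.72 and Rela by 0.40, calls that each held in 5 of 8 fits with a library left out (adjusted p up to 0.0545 and 0.0576). The Nfkb1 fold was larger in HSC than in LSEC by 1.10 ± 0.25 (adjusted p 0.0141). Nfkb1 was the only 1 of the 7 called for this difference, against 1.62% of all genes. The differences for Cebpb, Rela and Irf1 (-0.05 for Irf1) were not called.

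Of the other cofactor-handling genes 2 of 4 fell in HSC, Pcbd2 by 0.49 and Cbr1 by 0.45, and 0 of 4 were called in LSEC. Their difference of 12 h responses between HSC and LSEC was called for 0 of 4, against 1.62% of all genes. The Pcbd2 call was lost without HSC 12 h replicate 3 (adjusted p 0.0554). Agmo, a cofactor-dependent alkylglycerol oxidase, fell in LSEC from 12.3 to 4.92 CPM (log2 fold -1.30, adjusted p 0.000595). Across these lists 17 of 23 calls in HSC and 8 of 11 in LSEC held in every fit with a library left out. None of the list genes was called at 36 h against WT or in hepatocytes. Over all genes, 0.142% were called in HSC and 0% in LSEC at 36 h, and 0% in hepatocytes. Of the 10 cGMP genes only 3 were tested in hepatocytes.

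**Figure D4:**
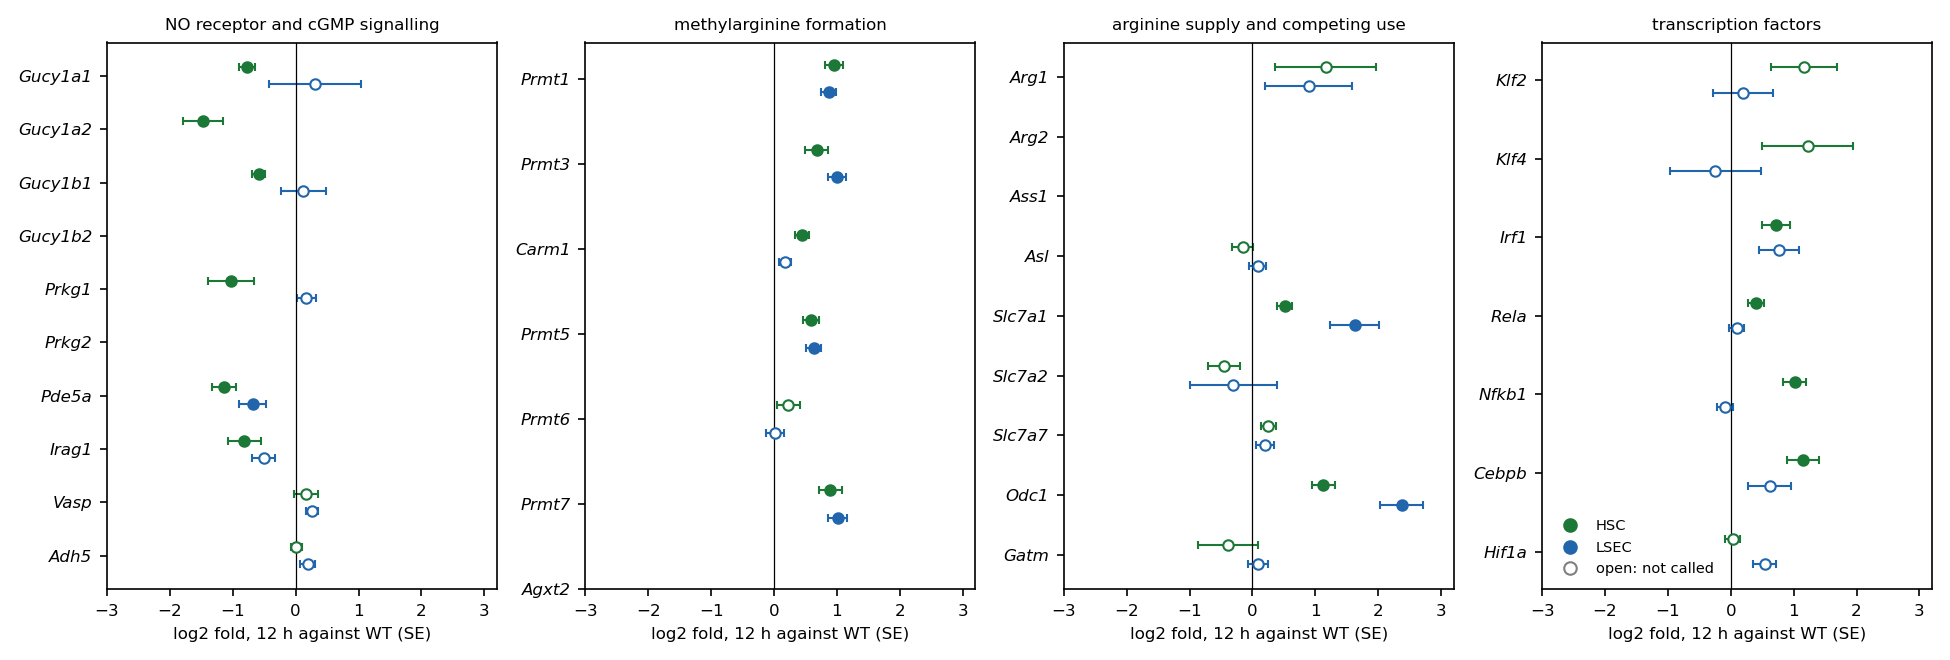
Log2 fold at 12 h in HSC and LSEC for genes of 4 lists, filled where called; genes without a point were not tested. In HSC 6 of the 8 cGMP genes with a point are called below 0, with a list median of -0.80, and the called methylarginine-forming enzymes lie above 0 in both cell types.

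Genes whose pattern was most like a member's were ranked by Pearson's r of log2(CPM + 1) over the 9 group means, among 11451 genes. For Gch1 they were Cox6a1 (r 0.996), Smdt1 (0.995) and Tars2 (0.991). For Nos1 they were Me3 (0.999), Kcnk2 (0.998) and Igsf21 (0.997), for Nos2 Serpina3i (0.997), Pcna (0.987) and Rnpep (0.985), and for Nos3 Map1b, Eva1c and Tal1 (each 0.999). The 9 means fall into 3 cell types, and each cell type gives 3 of them, so r mostly follows the differences between cell types. The rank correlation was lower for Igsf21 (0.611), Eva1c (0.683) and Tal1 (0.688).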

How the data were processed

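The labels give total RNA for each of the 36 libraries. The authors deposited whole-number counts per gene symbol, 1 table a library. Per the submitters' processing notes, FastQC 0.11.4, Trimmomatic 0.35, TopHat2 2.1.0 and SAMtools 0.1.18 were used with mm10; the counting tool, annotation and strand setting are not given in the sources used for this work. The 5 lines of uncounted reads (no feature 4.90% to 9.02%) were left out.

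Counts were fitted with edgeR 4.0.16 (limma 3.58.1, R 4.3.3): TMM scaling, filterByExpr (minimum count 10, total 15), the quasi-likelihood test, and Benjamini-Hochberg adjustment over all genes of a fit at 0.05. Each cell type had a fit of its 12 libraries over 3 groups, WT cell types a fit of 12 libraries, and differences of 12 h responses a fit of 36 libraries in 9 groups. The code was tested on simulated data. A floor of 3 counts over a group gives bounds for genes without a count. Exon lengths came from GENCODE on GRCm38, promoters from RefSeq. Members and lists were chosen with earlier results of these data known. All 10 members are named, and from each list up to 4 called genes by smallest adjusted p and up to 4 by highest level; other list genes that were called were named after their values were seen. 1 further transcription factor is not reported here.

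Alternatives were RLE scaling, no filter, DESeq2 1.42.0, other groups in the fit, a replicate block and leaving out each library. Replicate numbers are shared by groups, and every pair's deviations correlated above 0.1 in 3 comparisons: HSC 36 h against WT (0.142 to 0.301), hepatocyte 36 h against WT (0.506 to 0.640) and WT HSC against LSEC (0.142 to 0.453). With the block, 10 genes were called in place of 18 in the first and 5 in place of 0 in the second. Depth was 25404719 to 31734631 counts a library.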

Additional observations from a re-analysis of the deposited data

Results flagged for a closer look

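In hepatocytes at 12 h, Gch1 in replicate 2 was at 396.4 CPM, away from the other libraries of its group by 0.911 of the group's range, which exceeds the critical value for 4 libraries. It was 1 of 65 groups of member values so examined, and chance alone gives about 1 in 20.

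The 12 h response differed between cell types for Gch1 and Ddah1, by the test of the difference in edgeR's fit of all libraries. For Gch1 the log2 fold in HSC exceeded that in LSEC by 4.79 and that in hepatocytes by 5.23. For Ddah1 these differences were 1.99 and 1.75. For Nos2 the fitted difference between HSC and LSEC was 6.95, which passed the threshold (adjusted p 0.0434) but depends on the prior count since WT HSC had no count. The call was lost in 14 of 20 alternatives (adjusted p 0.0802 with the block and 0.0530 to 0.0904 with a library left out), so it is not counted as a difference in response.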

How the results depend on the processing

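Of 2118 member values under the alternatives, 2073 kept their side of the threshold and, where called, their direction, 29 lost a call, 16 gained one and 0 called values reversed. Counts of genes called by edgeR moved as follows. For HSC 36 h against WT (18), the replicate block gave 10, DESeq2 129, a fit of only the 2 groups 45, and leaving out a library 2 to 33. For LSEC 12 h (2241), the fit of all 36 libraries gave 1460 and leaving out a library 1539 to 2349; for LSEC 36 h (0), the block gave 5, DESeq2 109, the 2 groups 2, all 36 libraries 34, and leaving out a library 0 to 1. For hepatocytes at 12 h (0), the block gave 1, DESeq2 45, a Malat1 term 2, libraries under 100 CPM of Malat1 6 (chosen after seeing the data), and all 36 libraries 31; at 36 h (0) these gave 5, 60, 10, 10 and 48; between the times (0) the block gave 3, DESeq2 25 and all 36 libraries 9. For the response differences, HSC to LSEC (229) gave 349 with the block, 465 with DESeq2 and 155 (without HSC 12 h replicate 3) to 249 with a library left out. HSC to hepatocytes (1298) gave 688 (without HSC 12 h replicate 3) to 1483, and LSEC to hepatocytes (503) gave 915 with the block, 991 with DESeq2 and 243 (without LSEC 12 h replicate 3) to 581. The causes were not tested. Outside the 3 comparisons named with the processing, not every same-number pair correlated above 0.1, though some did. The pairs ranged from -0.161 to 0.560 in hepatocytes at 12 h against WT and from -0.178 to 0.455 in LSEC at 12 h against WT. Calls gained were Pts in HSC at 12 h with the block (adjusted p 0.0463) and without 12 h replicate 4 (0.0373), Ddah2 there without replicate 4 (0.0300), Nos2 in HSC at 36 h with DESeq2 (0.00553), Nos3 in LSEC 36 h to 12 h with the block (0.0490), DESeq2 (0.0413) and the 2 groups (0.0419), Gch1 and Ddah1 in LSEC 36 h to 12 h without 12 h replicate 2 (0.00935) and 3 (0.0444), Nos2 HSC to hepatocytes with DESeq2 (0.00393), and the Nos1 difference HSC to LSEC with DESeq2 (0.00673) and without HSC 12 h replicate 2 (0.0437), LSEC WT replicate 4 (0.00546) or LSEC 12 h replicate 3 (0.0101), beside the Gch1 calls given in the report. Nos2 had no count in WT HSC, nor in hepatocytes in WT and at 12 h, so the calls it gained are not read as results. Nos1 between WT LSEC and hepatocytes was lost with the block (0.0750), without LSEC WT replicate 4 (0.0671) and without any 1 hepatocyte library (0.0591 to 0.0650). Nos2 in HSC at 12 h fell under the filter in the fit of only the 2 groups, leaving 3 members called. Depth limits Nos1, Nos2 and Nos3 outside their main cell type, where a group holds few counts.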

Other observations

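The hepatocyte libraries divided into 2 sets by Malat1, a nuclear RNA, which was at 333.9 to 677.6 CPM in 5 libraries of all 3 groups and at 34.9 to 66.7 CPM in the other 7. Pts was at 44.8 to 66.4 CPM in the first set and at 29.8 to 38.3 CPM in the second, without overlap. Ddah1 was at 125.3 to 225.6 against 192.4 to 311.6 CPM, Gchfr at 195.9 to 275.5 against 169.2 to 211.1 CPM and Gch1 at 480.3 to 515.7 against 373.6 to 529.5 CPM. The sets were defined from the data and are not groups of the study, and no test was made between them.

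The ratio of Ddah2 to Ddah1 per kb moved in opposite directions in the 2 non-parenchymal cell types. Its mean was 48.0 in WT HSC, 10.2 at 12 h and 70.0 at 36 h, and 7.63, 12.6 and 6.28 in LSEC. The HSC ratios rest on low Ddah1 levels, 1.40 CPM in WT and 0.923 at 36 h. The hepatocyte marker share corresponds to 0.703 and 0.374 CPM of Ddah1 in those groups. The Ddah2 to Ddah1 ratio was not tested. The per-kb ratio of Gch1 to Gchfr in hepatocytes was 0.557, 0.541 and 0.510 in WT, at 12 h and at 36 h.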
